A study of Mus musculus with 6 samples.

Results

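The 45 genes described here encode the machinery of TNF and NF-kB signalling and genes that this pathway is known to switch on. They were chosen by symbol and looked up among the 15845 genes of a read count table from mouse bone marrow. All 45 were in the table with at least 10 counts in total. Of these, 23 are pathway components: 5 NF-kB subunits, 5 genes of the IkB family, 10 signalling regulators and 3 receptors. The other 22 are response genes: 10 cytokines or chemokines, 8 genes for surface proteins, enzymes or the inflammasome, and 4 stress or survival genes. A filter on low counts kept 42 of the 45 for testing, and Il1a, Cxcl2 and Cd80 stayed below it.

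RNA was sequenced from LSK cells, the bone marrow fraction that lacks mature lineage markers and carries Sca1 and c-Kit, which holds the blood stem cells and multipotent progenitors. Every mouse was of the C57BL/6 strain with the genotype Mx1Cre; Jak2VF/VF, in treated and control groups alike, and no mice without the Jak2 allele are among the samples. Jak2VF is an activated form of the Jak2 kinase that drives myeloproliferative disease, and Mx1Cre is a recombinase under an interferon-inducible promoter that is not restricted to blood cells. The 3 vehicle libraries come from mice given PBS, per the labels, and the 3 others from mice that had TP-3654 for 6 weeks at 150 mg/kg/day, a compound that the series title describes as inhibiting Pim1. The age and sex of the mice and the way in which Cre was induced are not stated in the labels. The design text calls the 3 libraries of each group biological replicates.

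NF-kB factors are dimers of the Rel, Rela, Relb, Nfkb1 and Nfkb2 proteins that wait in the cytoplasm, held by inhibitors of the IkB family. When TNF, interleukin 1 or a Toll-like receptor is engaged, adaptor complexes activate a kinase that marks IkB for destruction, and the freed dimers bind kappa B sites in the promoters of inflammatory and survival genes. Several targets, among them Nfkbia, Tnfaip3 and Tnip1, encode inhibitors that shut the pathway down again, so their transcripts are commonly read as a trace of its activity. In stem and progenitor cells the pathway is known for its part in emergency myelopoiesis and for the inflammatory state of myeloproliferative bone marrow.

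Library totals ran from 20582057 to 25315596 counts, with 15138 to 15529 genes detected per library, and the depth put the limit of detection, taken as 3 counts, at 0.116 to 0.153 CPM. CPM here means counts scaled to a common library total after TMM scaling, a correction for library composition. The sort genes Kit (365 to 581 CPM) and Ly6a, which encodes Sca1 (40.0 to 69.2 CPM), were present in every library. The T cell gene Cd3e (0 to 0.0387 CPM) and the neutrophil gene Ly6g (0 to 0.158 CPM) were at or near 0. Other genes of their marker lists were not. The mature neutrophil and monocyte list summed to 456 to 1055 CPM over the libraries, and the T, NK and innate lymphoid list to 147 to 277 CPM. Genes of granulocyte-monocyte progenitors stood apart between the groups: a list of 14 such genes, Mpo, Elane and Cebpa among them, summed to 12235 to 15400 CPM in vehicle and to 3403 to 9000 CPM in TP-3654 libraries. A list of 15 stem cell genes summed to 811 to 902 CPM in vehicle and 1228 to 1317 CPM in TP-3654 libraries. The sort genes Kit and Ly6a are among the 15, and this sum does not speak for each gene. The log2 fold change of TP-3654 over vehicle was positive in 12 of them and negative in 3. In bulk RNA, fewer cells of a type and less RNA per cell cannot be told apart. The part of these differences between the lists' levels in the member genes' values was not tested.

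Many members carry the NF-kB recognition sequence close to their start, and 6 such promoters are shown because the results below turn on these genes: those of 4 members that were lower in TP-3654 libraries (Tlr2, Tnfaip3, Tnip1, Tnfaip2), of the one cytokine gene that was higher (Ltb), and of Nfkbia, the classical feedback inhibitor, whose groups overlapped. Each runs 5′ to 3′ on the strand of the gene, from 250 bases before an annotated start to 10 after it, in RefSeq's annotation of GRCm38.p6, and capitals mark matches to the kappa B consensus. This consensus is 10 bases long and is made of G bases, a purine, free positions, pyrimidines and C bases in that order. It was searched on both strands, and overlapping matches were joined into 1 stretch.
Tlr2, chr3:83841599-83841858, minus strand: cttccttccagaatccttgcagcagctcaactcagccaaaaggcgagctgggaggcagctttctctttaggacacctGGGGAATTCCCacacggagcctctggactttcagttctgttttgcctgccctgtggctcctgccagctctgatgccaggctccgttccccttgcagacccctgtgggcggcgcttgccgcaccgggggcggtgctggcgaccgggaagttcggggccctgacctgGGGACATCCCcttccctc
Tnfaip3, chr10:19015401-19015660, minus strand: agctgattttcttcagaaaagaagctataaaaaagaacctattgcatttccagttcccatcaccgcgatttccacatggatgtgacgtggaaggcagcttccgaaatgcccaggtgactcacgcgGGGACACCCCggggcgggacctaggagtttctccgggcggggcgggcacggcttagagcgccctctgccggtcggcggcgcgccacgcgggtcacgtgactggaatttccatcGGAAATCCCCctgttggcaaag
Tnip1, chr11:54962931-54963190, minus strand: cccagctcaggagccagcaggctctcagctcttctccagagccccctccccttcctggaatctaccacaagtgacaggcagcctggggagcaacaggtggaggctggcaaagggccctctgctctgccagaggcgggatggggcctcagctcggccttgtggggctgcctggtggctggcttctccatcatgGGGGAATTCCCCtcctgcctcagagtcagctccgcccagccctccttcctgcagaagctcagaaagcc
Tnfaip2, chr12:111442411-111442670, plus strand: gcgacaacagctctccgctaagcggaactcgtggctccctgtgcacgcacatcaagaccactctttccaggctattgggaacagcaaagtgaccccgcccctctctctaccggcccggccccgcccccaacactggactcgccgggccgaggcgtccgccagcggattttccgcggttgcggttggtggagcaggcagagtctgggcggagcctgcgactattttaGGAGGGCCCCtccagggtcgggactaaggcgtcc
Ltb, chr17:35194257-35194516, plus strand: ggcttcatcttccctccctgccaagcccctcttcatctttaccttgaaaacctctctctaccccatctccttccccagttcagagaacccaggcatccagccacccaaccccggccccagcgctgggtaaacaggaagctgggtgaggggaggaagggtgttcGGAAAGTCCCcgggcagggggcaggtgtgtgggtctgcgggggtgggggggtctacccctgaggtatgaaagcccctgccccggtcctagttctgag
Nfkbia, chr12:55492638-55492897, minus strand: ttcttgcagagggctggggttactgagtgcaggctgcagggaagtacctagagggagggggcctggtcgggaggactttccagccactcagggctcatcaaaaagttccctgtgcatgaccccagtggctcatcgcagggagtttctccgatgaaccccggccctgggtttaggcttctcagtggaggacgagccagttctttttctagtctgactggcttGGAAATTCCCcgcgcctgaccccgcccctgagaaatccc

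Tlr2 and Tnfaip3 each hold 2 stretches, at 173 and 8 bases before the start in Tlr2 and at 125 and 12 bases before it in Tnfaip3. The Tnip1 stretch GGGGAATTCCCC reads the same on both strands, starts 58 bases before the annotated start, and contains the 11 bases of the upstream Tlr2 stretch, GGGGAATTCCC. The stretches of Nfkbia (29 bases before the start), Tnfaip2 (24) and Ltb (87) are single matches of 10 bases. Csf1 holds the same 10 bases as Ltb, GGAAAGTCCC, at 154 bases before its start. Tnfaip3 has a second RefSeq start, whose window holds no match.

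A promoter window of 300 bases, from 250 before to 50 after the start, was taken from RefSeq's table for 35 of the 45 members. Of these, 17 (48.6%) held at least 1 stretch, against 9.55% of all 27025 genes with a window, and 3 (8.57%) held more than 1, against 0.596% of all genes. The 17 were Nfkb2, Rel, Nfkbia, Nfkbie, Bcl3, Tnfaip3, Tnip1, Sqstm1, Tlr2, Ltb, Il6, Cxcl2, Csf1, Nlrp3, Sod2, Tnfaip2 and Ier3. Components and response genes held a stretch in like shares, 9 of 18 and 8 of 17. Since the members were picked as known targets, the share describes the list, and a match is not evidence of binding in these cells. The genes without a window here were Nfkb1, Relb, Nfkbiz, Map3k8, Ripk2, Ccl4, Ccl5, Cd69, Cd83 and Tnfaip8. Of these, Map3k8 and Tnfaip8 lie on chromosome 18, whose windows were left out for the members but not for all genes. The others had no window in RefSeq's table.

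**Figure D1:**
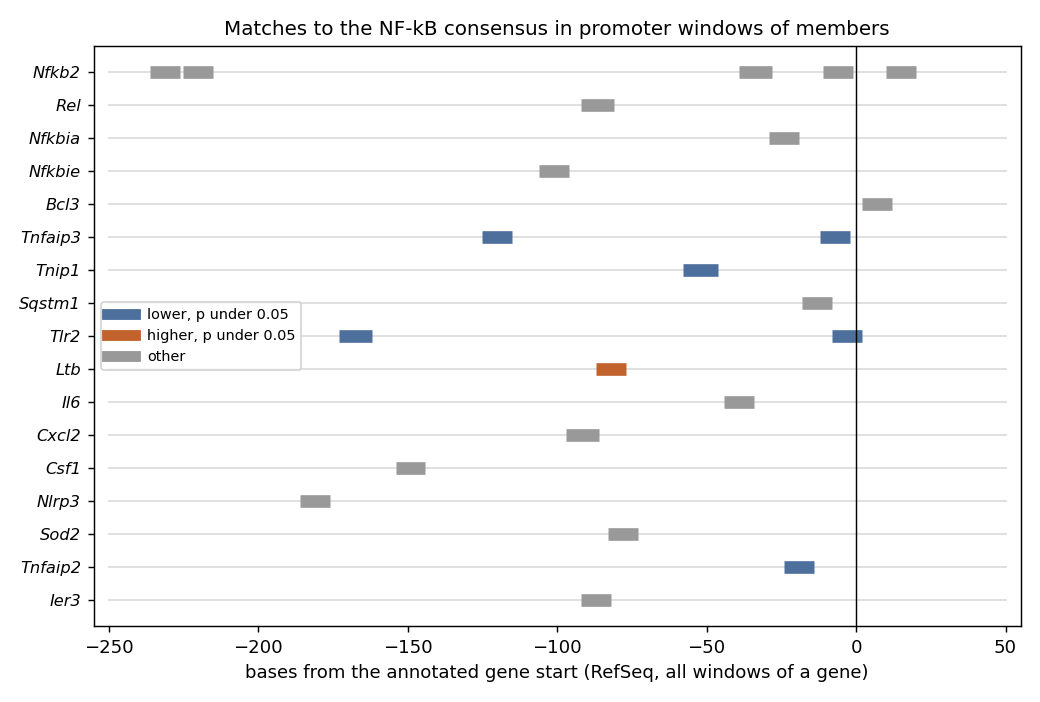
Position of kappa B consensus stretches in the promoter windows of the 17 members that hold one, in bases from the annotated gene start. Blue marks Tnfaip3, Tnip1, Tlr2 and Tnfaip2 (lower in TP-3654 libraries at unadjusted p under 0.05), orange marks Ltb (higher), and grey the other genes; stretches begin between 236 bases before and 10 bases after the start.

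The main comparison asked which of these genes differed between LSK cells of TP-3654 and vehicle mice. No member passed edgeR's quasi-likelihood test at a false discovery rate (FDR, the Benjamini-Hochberg adjusted p over all 13149 genes tested) under 0.05, and no gene of the whole table did (0%). At an unadjusted p under 0.05 edgeR found 2244 genes (17.1% of those tested), 1344 higher (10.2%) and 900 lower (6.84%). Among the 42 tested members, 8 were lower at that level (19.0%) and 2 were higher (4.76%). The lower members were the receptor genes Tlr2 and Tnfrsf1a, the inhibitor genes Tnip1, Tnfaip3 and Nfkbib, and the response genes Cd69, Gadd45b and Tnfaip2. The higher ones were Ltb, a cytokine gene, and Map3k8, a kinase gene. In the same 10 genes, and in no other tested member, the 3 vehicle libraries did not overlap the 3 TP-3654 libraries; over all tested genes, groups did not overlap in 14.3% in the higher and 11.6% in the lower direction. The smallest adjusted p of a member was 0.0946, for Tlr2.

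The members' share was above the whole table's in the lower direction and below it in the higher direction, with no test of this contrast. Log2 fold changes of TP-3654 over vehicle were negative in 27 of the 42 members (64.3%) and in 6297 of the 13149 genes (47.9%), and their median was -0.09 against 0.01 over all genes tested. The components had a median of -0.08, with 5 lower and 1 higher at unadjusted p under 0.05 out of 23. The response genes had a median of -0.16, with 3 lower and 1 higher out of 19 tested.

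DESeq2 on the same counts called 392 genes higher (3.04% of its 12877 genes with an adjusted p) and 255 lower (1.98%) under 0.05. It called 5 members lower, Tlr2, Cd69, Tnip1, Gadd45b and Tnfaip2, and none higher. The authors' deposited table lists 374 genes higher (2.85% of 13130 with an adjusted p) and 325 lower (2.48%) at an adjusted p under 0.05. Of the 42 members that it lists, the authors' deposited table gives 6 as lower, these 5 and Tnfaip3, and none as higher. Limma-voom, like edgeR, called no gene, and limma-voom with sample weights called 147 genes, with no member among them.

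**Figure D2:**
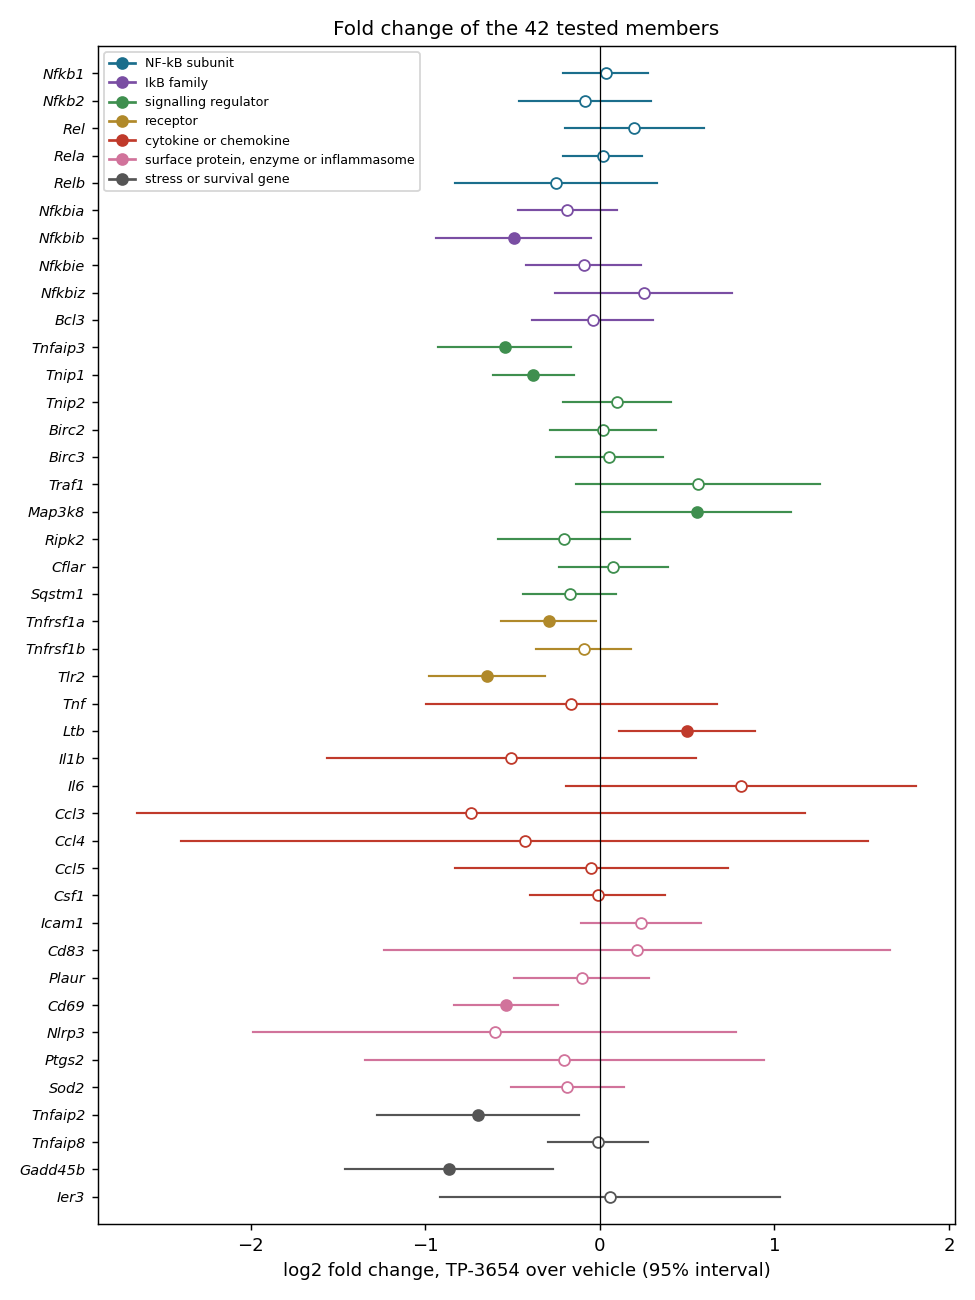
Log2 fold change of TP-3654 over vehicle for the 42 tested members (edgeR), ordered and coloured by role, with 95% intervals. Filled points have an unadjusted p under 0.05: 8 lie left of 0 and 2 right of it. The intervals of the 5 NF-kB subunits all include 0, and the chemokine genes Ccl3 and Ccl4 have the widest intervals.

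Of the 3 receptor genes, Tlr2 and Tnfrsf1a were lower at unadjusted p under 0.05. Tlr2, the receptor for bacterial lipoproteins (chromosome 3, 83836272 to 83841824), had 23.5, 24.0 and 23.1 CPM in the vehicle libraries and 14.4, 16.9 and 13.7 CPM in the TP-3654 libraries. The vehicle libraries lay within a narrow band, and all TP-3654 libraries were below it. The mean went from 23.5 ± 0.408 CPM (SD, n = 3) to 15.0 ± 1.69 CPM (SD, n = 3), a log2 fold change of -0.65 (SE 0.15), or 1.57-fold lower. Its unadjusted p was 0.00160 and its adjusted p 0.0946 in edgeR, against an adjusted p of 0.00555 in DESeq2 and of 0.000128 in the authors' deposited table.

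Tnfrsf1a encodes TNF receptor 1, the main TNF receptor of most cells (chromosome 6, 125349723 to 125362483). Its vehicle libraries had 157, 153 and 161 CPM and its TP-3654 libraries 120, 149 and 116 CPM. The groups did not overlap, but TP-3654 replicate 2 came close to vehicle replicate 2. Tnfrsf1a had a log2 fold change of -0.29 (SE 0.12) with an unadjusted p of 0.0377 and an adjusted p of 0.267 in edgeR. Tnfrsf1b, which encodes TNF receptor 2, ranged from 94.5 to 105 CPM in vehicle and from 83.8 to 107 CPM in TP-3654 libraries, and its log2 fold change was -0.09 with a 95% interval from -0.36 to 0.18. Per kilobase of annotated exon, Tnfrsf1a had the highest vehicle level of all members (60.7 ± 1.65 CPM per kb, SD, n = 3), above Tnfrsf1b (26.0 ± 1.32 CPM per kb) and Tlr2 (7.81 ± 0.136 CPM per kb). The length used joins all annotated exons of a gene, 2591 bases for Tnfrsf1a and 12061 for Nfkb1. It can exceed that of the transcripts present, so any order of genes per kilobase depends on the annotation.

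The ligand Tnf (chromosome 17, 35199367 to 35202007) was expressed at a low level, 5.12, 2.66 and 5.09 CPM in vehicle and 4.95, 2.32 and 4.24 CPM in TP-3654 libraries. Replicate 2 was the lowest library in both groups, and the groups overlapped across their whole range. Its log2 fold change was -0.16, with a 95% interval from -1.0 to 0.67. Ltb, its neighbour in the same gene cluster (chromosome 17, 35194507 to 35196305), encodes lymphotoxin beta, a membrane ligand of the non-canonical branch of the pathway. It had 15.7, 14.6 and 20.6 CPM in vehicle and 21.6, 26.1 and 24.3 CPM in TP-3654 libraries. Every TP-3654 library was above every vehicle library, with vehicle replicate 3 the nearest. The log2 fold change of Ltb was 0.50 (SE 0.17), or 1.41-fold higher, with an unadjusted p of 0.0169 and an adjusted p of 0.204 in edgeR. In the authors' deposited table Ltb has a log2 fold change of 0.54 and an adjusted p of 0.648.

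The NF-kB subunits overlapped between groups in all 5 cases, with log2 fold changes from -0.25 for Relb to 0.20 for Rel. Nfkb1, which encodes p105 and its product p50, had 278, 299 and 287 CPM in vehicle and 272, 300 and 314 CPM in TP-3654 libraries. Rela, the main activating subunit p65, had 122, 123 and 132 CPM in vehicle and 133, 128 and 120 CPM in TP-3654 libraries. These 2 genes gave the narrowest intervals of the 5, from -0.21 to 0.28 on the log2 scale for Nfkb1 and from -0.21 to 0.24 for Rela. Rel, the c-Rel subunit of lymphoid and myeloid cells, had 36.7, 28.6 and 25.2 CPM in vehicle and 28.9, 36.0 and 39.0 CPM in TP-3654 libraries, with an interval from -0.20 to 0.60.

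The partners of the non-canonical branch are Nfkb2, which encodes p100 and p52, and Relb. Nfkb2 had 37.6, 42.3 and 49.7 CPM in vehicle and 35.0, 37.6 and 49.6 CPM in TP-3654 libraries, with an interval from -0.46 to 0.29. Relb was the scarcest subunit, with 8.0, 14.1 and 16.4 CPM in vehicle and 10.2, 10.7 and 11.4 CPM in TP-3654 libraries. Its vehicle libraries spread on both sides of the closely spaced TP-3654 libraries, and its interval ran from -0.83 to 0.33. Per kilobase of annotated exon the vehicle levels were 40.9 ± 1.80 for Rela, 23.9 ± 0.843 for Nfkb1, 9.42 ± 1.33 for Nfkb2, 4.04 ± 0.792 for Rel and 3.30 ± 1.12 CPM per kb for Relb (SD, n = 3). Rel and Relb did not differ beyond their spread. The order of Rela and Nfkb1 depends on their joined exon lengths of 3072 and 12061 bases, and in CPM Nfkb1 was the higher.

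In the IkB family 1 of 5 genes differed at unadjusted p under 0.05. Nfkbib, which encodes IkB beta (chromosome 7, 28758251 to 28766644), had 43.1, 48.0 and 49.4 CPM in vehicle and 36.0, 40.7 and 23.2 CPM in TP-3654 libraries. All TP-3654 libraries were lower, and replicate 3 was far below the other TP-3654 libraries. The fitted log2 fold change of Nfkbib was -0.49 (SE 0.20) with an unadjusted p of 0.0333 and an adjusted p of 0.259 in edgeR; without TP-3654 replicate 3 it was -0.30. Its locus overlaps that of Ccer2, and 14% of its transcript 31-mers also occur in transcripts of other annotated genes, most of all Ccer2. Its count is therefore less certain than those of Tlr2, Tnip1 and Tnfaip3, where this share was 0%.

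Nfkbia, which encodes IkB alpha and is among the most direct NF-kB targets, had 64.2, 78.6 and 78.1 CPM in vehicle and 59.5, 71.4 and 63.3 CPM in TP-3654 libraries. The groups overlapped through vehicle replicate 1, and the log2 fold change was -0.19 with a 95% interval from -0.47 to 0.10. Nfkbie, which encodes IkB epsilon, had 27.7, 31.4 and 37.7 CPM in vehicle and 29.5, 32.0 and 29.3 CPM in TP-3654 libraries, with an interval from -0.42 to 0.24. Both overlapped, and so did the atypical nuclear members of the family. Bcl3, a nuclear coactivator of p50 and p52, had 28.5, 32.4 and 32.5 CPM against 26.7, 36.1 and 27.8 CPM, with an interval from -0.39 to 0.30. Nfkbiz, which encodes the nuclear IkB zeta, had 11.5, 8.11 and 8.34 CPM against 9.90, 9.83 and 13.6 CPM, with an interval from -0.26 to 0.76.

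Among the signalling regulators, the feedback inhibitor genes Tnip1 and Tnfaip3 were both lower. Tnip1 encodes ABIN-1, a ubiquitin-binding partner of A20 (chromosome 11, 54910787 to 54962956), and had 79.6, 82.0 and 89.8 CPM in vehicle and 62.9, 63.8 and 66.4 CPM in TP-3654 libraries. The TP-3654 libraries were close to one another and well below the vehicle libraries, with means of 83.8 ± 5.34 and 64.4 ± 1.82 CPM (SD, n = 3). The log2 fold change of Tnip1 was -0.38 (SE 0.10), or 1.30-fold lower, with an unadjusted p of 0.00479 and an adjusted p of 0.138 in edgeR and of 0.0409 in DESeq2. The authors' deposited table gives Tnip1 an adjusted p of 0.0438.

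Tnfaip3 encodes A20, the ubiquitin-editing enzyme that ends TNF receptor signalling (chromosome 10, 19000910 to 19015410). It had 24.9, 29.7 and 25.2 CPM in vehicle and 17.6, 15.3 and 21.8 CPM in TP-3654 libraries. TP-3654 replicate 3 was the nearest to the vehicle libraries and still below all of them. This gave a log2 fold change of -0.54 (SE 0.17), or 1.46-fold lower, with an unadjusted p of 0.0101 and an adjusted p of 0.176 in edgeR and of 0.0758 in DESeq2. In the authors' deposited table its adjusted p is 0.0287. Tnip2, which encodes the related ABIN-2, ranged from 31.3 to 39.1 CPM in vehicle and from 35.8 to 42.2 CPM in TP-3654 libraries, with a log2 fold change of 0.10.

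Map3k8, which encodes the kinase TPL2 that links TNF and Toll-like receptors to ERK (chromosome 18, 4331325 to 4352953), was higher. Its vehicle libraries had 7.61, 4.50 and 6.05 CPM and its TP-3654 libraries 8.14, 9.71 and 8.84 CPM. The groups did not overlap, though vehicle replicate 1 and TP-3654 replicate 1 were close. The log2 fold change of Map3k8 was 0.56 (SE 0.24), or 1.47-fold higher, with an unadjusted p of 0.0458 and an adjusted p of 0.283 in edgeR. Traf1, an adaptor of TNF receptors, overlapped between 1.98 to 3.82 CPM in vehicle and 3.72 to 4.67 CPM in TP-3654 libraries, with a log2 fold change of 0.56 (SE 0.31).

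The other regulators overlapped between groups with log2 fold changes from -0.21 for Ripk2, the kinase of NOD receptors, to 0.08 for Cflar, the caspase 8 inhibitor. Birc2 and Birc3, ubiquitin ligases of the TNF receptor complex, had log2 fold changes of 0.02 and 0.05. Sqstm1, the p62 scaffold, had the highest level of the regulators per kilobase of annotated exon (42.7 ± 0.973 CPM per kb in vehicle, SD, n = 3). Its log2 fold change was -0.17 with an interval from -0.44 to 0.09.

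**Figure D3:**
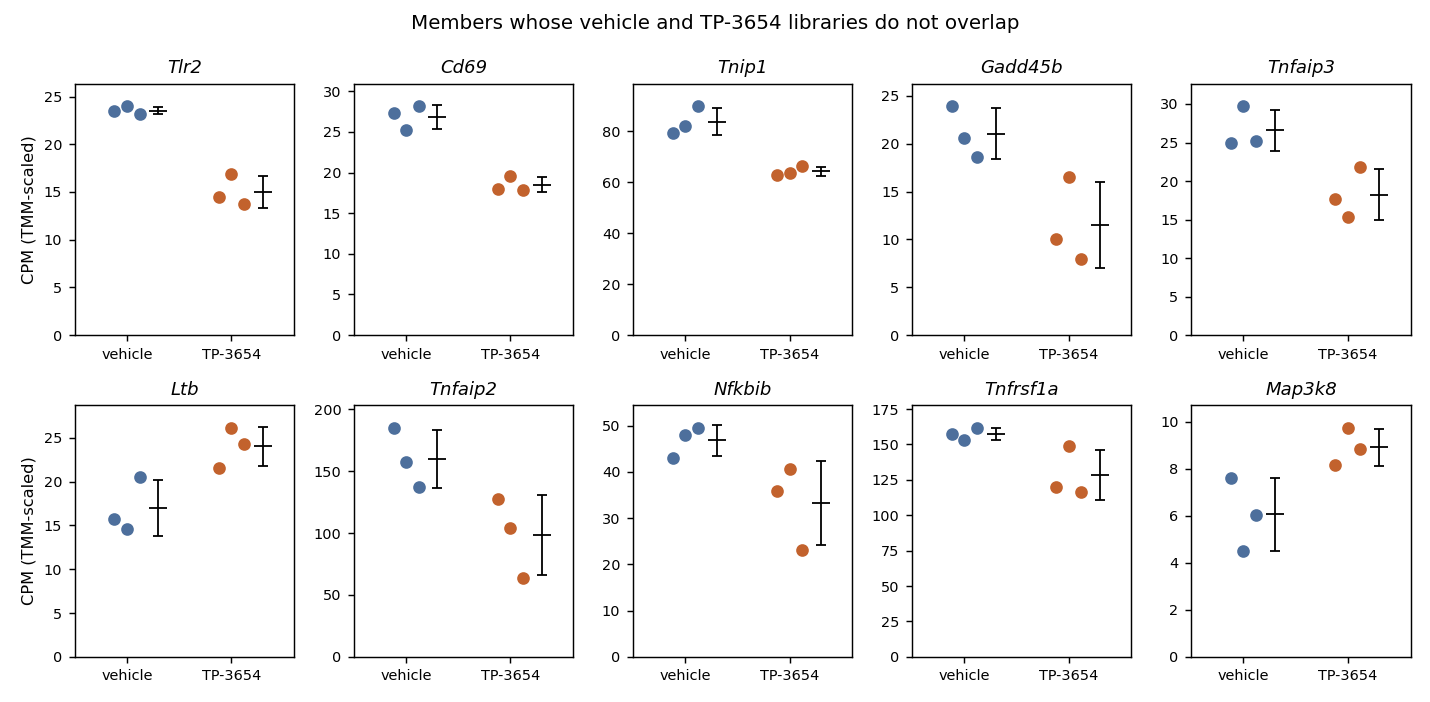
Level in CPM (TMM-scaled, linear axis from 0) of the 10 tested members whose groups do not overlap, ordered by p. Points are single libraries, 3 per group, and the bar beside them is the mean with its SD; Tlr2, Cd69 and Tnip1 show tight groups, whereas Gadd45b, Tnfaip2 and Nfkbib have 1 TP-3654 library far from the others.

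Of the response genes, some differed between groups at unadjusted p under 0.05 and others varied widely within a group. Cd69, an early activation antigen that retains cells in tissue (chromosome 6, 129267324 to 129275375), had 27.3, 25.3 and 28.1 CPM in vehicle and 18, 19.6 and 17.9 CPM in TP-3654 libraries. Both groups were compact and clearly separated, with means of 26.9 ± 1.48 and 18.5 ± 0.960 CPM (SD, n = 3). For Cd69 the log2 fold change was -0.54 (SE 0.13), or 1.45-fold lower, with an unadjusted p of 0.00273 and an adjusted p of 0.113 in edgeR and of 0.0147 in DESeq2. The authors' deposited table gives Cd69 an adjusted p of 0.00378.

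Gadd45b, a stress sensor that restrains JNK signalling downstream of NF-kB (chromosome 10, 80930091 to 80932204), had 23.9, 20.6 and 18.6 CPM in vehicle and 10.1, 16.6 and 7.92 CPM in TP-3654 libraries. TP-3654 replicate 2 stood between the vehicle libraries and the other TP-3654 libraries. Of all tested members Gadd45b had the most negative log2 fold change, -0.86 (SE 0.26), or 1.82-fold lower, with an unadjusted p of 0.00945 and an adjusted p of 0.173 in edgeR and of 0.0340 in DESeq2. Without TP-3654 replicate 2 it was -1.22, with an adjusted p of 0.0631 in edgeR, and without TP-3654 replicate 3 it was -0.67, with an adjusted p of 0.249.

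Tnfaip2, a TNF-induced gene with myeloid expression (chromosome 12, 111442450 to 111455018), had 185, 157 and 137 CPM in vehicle and 127, 104 and 63.7 CPM in TP-3654 libraries. The spread was wide in both groups, and TP-3654 replicate 1 came close to vehicle replicate 3. On average Tnfaip2 had a log2 fold change of -0.70 (SE 0.25), or 1.62-fold lower, with an unadjusted p of 0.0240 and an adjusted p of 0.230 in edgeR and of 0.0423 in DESeq2. Tnfaip8, another TNF-induced gene and a regulator of cell death, ranged from 129 to 159 CPM in vehicle and from 130 to 161 CPM in TP-3654 libraries, with a log2 fold change of -0.01.

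The levels of 5 of the 8 lower members were highest in replicate 2 among the TP-3654 libraries, and 6 of the 8 were lowest in replicate 3. Among all 42 tested members these counts were 22 and 17, and those over all tested genes are not given here. The summed marker lists of 3 cell types had the same highest and lowest library. The granulocyte-monocyte progenitor list stood at 5095, 9000 and 3403 CPM in TP-3654 replicates 1, 2 and 3, the T, NK and innate lymphoid list (14 genes) at 159, 233 and 147 CPM, and the mast cell and basophil list (8 genes) at 562, 679 and 292 CPM. TP-3654 replicate 3 was also the lowest of its group in the erythroid (2390, 1348 and 1215 CPM), B and plasma cell (123, 72.5 and 36.2 CPM) and immediate early (1849, 1701 and 984 CPM) lists, where replicate 1 was highest. The neutrophil and monocyte, macrophage and dendritic cell, megakaryocyte, stromal and endothelial, and stem cell lists had another lowest library. For the progenitor list the summed level in vehicle was 15400, 13817 and 12235 CPM. Tlr2, Tnfrsf1a, Nfkbib, Cd69 and Gadd45b followed the order of the first 3 lists within the TP-3654 group. Gadd45b and Tnfaip2 followed that of the progenitor list within the vehicle group, and Tnip1 and Tnfaip3 followed it in neither group. How many of all tested genes follow these orders is not given, so nothing about a cause is read from them. In vehicle the T, NK and innate lymphoid list summed to 234 to 277 CPM, just above its TP-3654 levels with no overlap. This sum does not speak for each of its genes. Of the 14, 6 were tested, 3 with a positive and 3 with a negative log2 fold change (median 0.18). At unadjusted p under 0.05 in edgeR, Nkg7 was lower and Klrd1 higher. The mast cell and basophil list summed to 629 to 703 CPM in vehicle, overlapping its TP-3654 levels. The part of these cell types in the members' values was not tested.

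Several inflammatory response genes varied widely between libraries of 1 group. Ccl3, which encodes the chemokine MIP-1 alpha, had 14.7, 1.67 and 14.9 CPM in vehicle and 5.27, 7.70 and 5.72 CPM in TP-3654 libraries. Vehicle replicate 2 was the lowest of all libraries and the other vehicle libraries were the highest. The neighbouring Ccl4, which encodes MIP-1 beta, repeated this pattern with 7.13, 0.765 and 8.25 CPM against 2.73, 6.00 and 3.22 CPM. The annotated loci of Ccl3 and Ccl4 overlap, and without a known strand setting of the counting, reads in the overlap cannot be told apart. Their log2 fold changes were -0.74 (SE 0.77) and -0.43 (SE 0.80). Without vehicle replicate 2 they were -1.26 (unadjusted p 0.000913, adjusted p 0.299 in edgeR) and -0.96 (unadjusted p 0.0357, adjusted p 0.369). That library was singled out by these same values, so the smaller p is no evidence of a difference. Over all fits without 1 library they ran from -1.26 to -0.39 for Ccl3 and from -0.96 to 0.01 for Ccl4.

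Ier3, an immediate early survival gene, and Cxcl2, which encodes a neutrophil-attracting chemokine, shared the low value of vehicle replicate 2. Ier3 had 36.4, 14.9 and 38.8 CPM in vehicle and 34.2, 38.3 and 21.3 CPM in TP-3654 libraries, with a log2 fold change of 0.06 that became -0.28 without vehicle replicate 2. A list of 26 immediate early and handling stress genes, Fos, Jun and Egr1 among them, summed to 2300, 1185 and 2773 CPM in vehicle and to 1849, 1701 and 984 CPM in TP-3654 libraries. It was lowest in vehicle replicate 2 among the vehicle libraries, as were these 4 genes, and lowest in TP-3654 replicate 3 of all libraries. The part of immediate early induction in the values of these members was not tested.

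A different set was high in vehicle replicate 1. Nlrp3, the inflammasome sensor, had 4.33, 1.40 and 0.779 CPM in vehicle and 0.925, 1.74 and 1.64 CPM in TP-3654 libraries. Ptgs2, which encodes the prostaglandin enzyme COX-2, had 1.14, 0.450 and 0.412 CPM against 0.694, 0.503 and 0.562 CPM. Il1b, an inflammasome substrate, had 3.07, 1.58 and 1.42 CPM against 1.39, 0.774 and 2.15 CPM. All of them were highest in vehicle replicate 1, and their log2 fold changes were -0.60 for Nlrp3, -0.20 for Ptgs2 and -0.51 for Il1b. Without that library they were 0.40, 0.43 and -0.07, so the direction of Nlrp3 and Ptgs2 rested on it.

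A list of 23 mature neutrophil and monocyte genes summed to 1055 CPM in vehicle replicate 1, 596 and 575 CPM in the other vehicle libraries, and 456 to 661 CPM in TP-3654 libraries. A list of 15 macrophage and dendritic cell genes was likewise highest in vehicle replicate 1, at 307 CPM against 201 and 165 CPM in the other vehicle libraries and 149 to 189 CPM in TP-3654 libraries. Among the neutrophil and monocyte genes, the defining genes S100a8 (39.0 CPM), S100a9 (40.2 CPM) and Ngp (16.2 CPM) were highest in vehicle replicate 1 and at 0.450, 0.135 and 0 CPM in vehicle replicate 2. The part of either kind of cell in the values of Nlrp3, Ptgs2 and Il1b was not tested.

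**Figure D4:**
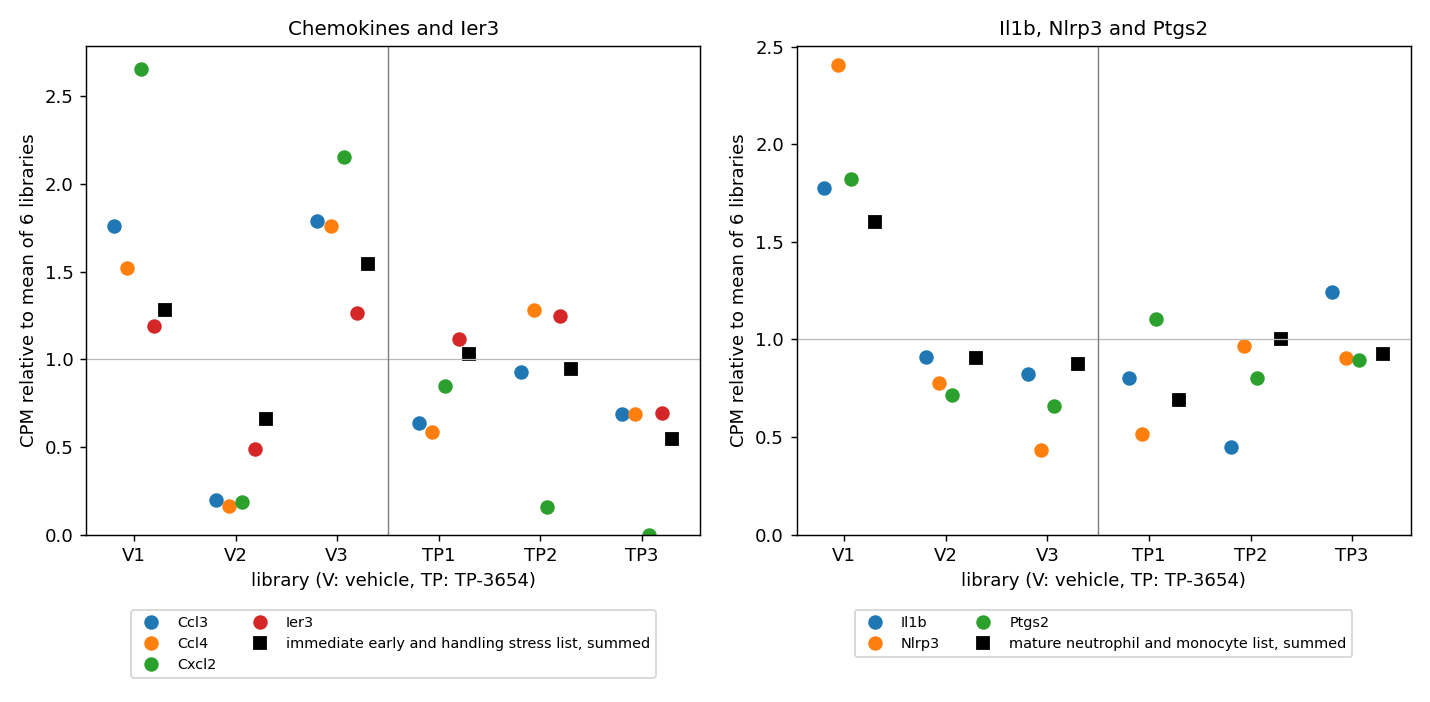
Level of each gene in each library relative to its mean over the 6 libraries (CPM over mean CPM), beside the summed level of a marker list on the same scale (black squares). Left, Ccl3, Ccl4, Cxcl2 and Ier3 are low in vehicle replicate 2 beside the immediate early list; right, Il1b, Nlrp3 and Ptgs2 are highest in vehicle replicate 1 beside the mature neutrophil and monocyte list.

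Il6, a myeloid growth cytokine, had 1.54, 1.76 and 1.37 CPM in vehicle and 3.24, 3.79 and 1.12 CPM in TP-3654 libraries. TP-3654 replicate 3 was the lowest of all libraries while the other TP-3654 libraries were the highest. The log2 fold change of Il6 was 0.81 (SE 0.45), the highest of any tested member, with an unadjusted p of 0.101 and an adjusted p of 0.372 in edgeR. Without TP-3654 replicate 3 it was 1.17 (adjusted p 0.171 in edgeR), and without TP-3654 replicate 2 it was 0.49 (adjusted p 0.619). The T cell chemokine gene Ccl5 and the macrophage growth factor gene Csf1 ranged from 2.15 to 4.22 CPM and from 13 to 16.8 CPM over the 6 libraries, with log2 fold changes of -0.05 and -0.01.

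The remaining surface and enzyme genes overlapped between groups. Icam1, a leukocyte adhesion ligand, ranged from 37.8 to 54.0 CPM in vehicle and from 53.5 to 60.9 CPM in TP-3654 libraries, with a log2 fold change of 0.24 (interval from -0.11 to 0.58). Sod2, the mitochondrial superoxide dismutase, had a log2 fold change of -0.19 (interval from -0.51 to 0.14), and 26.7% of its 31-mers are shared with transcripts of other annotated genes. Plaur, the urokinase receptor, had a log2 fold change of -0.10. Cd83, a dendritic cell activation marker, was near the limit of detection with 30 counts over the vehicle and 32 over the TP-3654 libraries.

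The 3 untested genes had few counts. Il1a, the interleukin 1 alpha gene, had 2, 1 and 0 counts in vehicle and 10, 4 and 3 in TP-3654 libraries. Scaled for library size its summed ratio was 5.87-fold higher, with an exact 95% interval from 1.70 to 31.2 that covers counting error only. When genes with at least 10 counts in total were kept, edgeR gave Il1a an unadjusted p of 0.0331 and an adjusted p of 0.280. Cxcl2 had 58 counts over the vehicle and 11 over the TP-3654 libraries, which is 5.09-fold lower with a counting interval from 2.65 to 10.8. Its libraries nevertheless overlapped, at 1.30, 0.0901 and 1.05 CPM in vehicle and 0.416, 0.0774 and 0 CPM in TP-3654 libraries, and the unadjusted p under the looser filter was 0.0777. Cd80, the costimulatory ligand, had 18 and 15 counts.

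**Figure D5:**
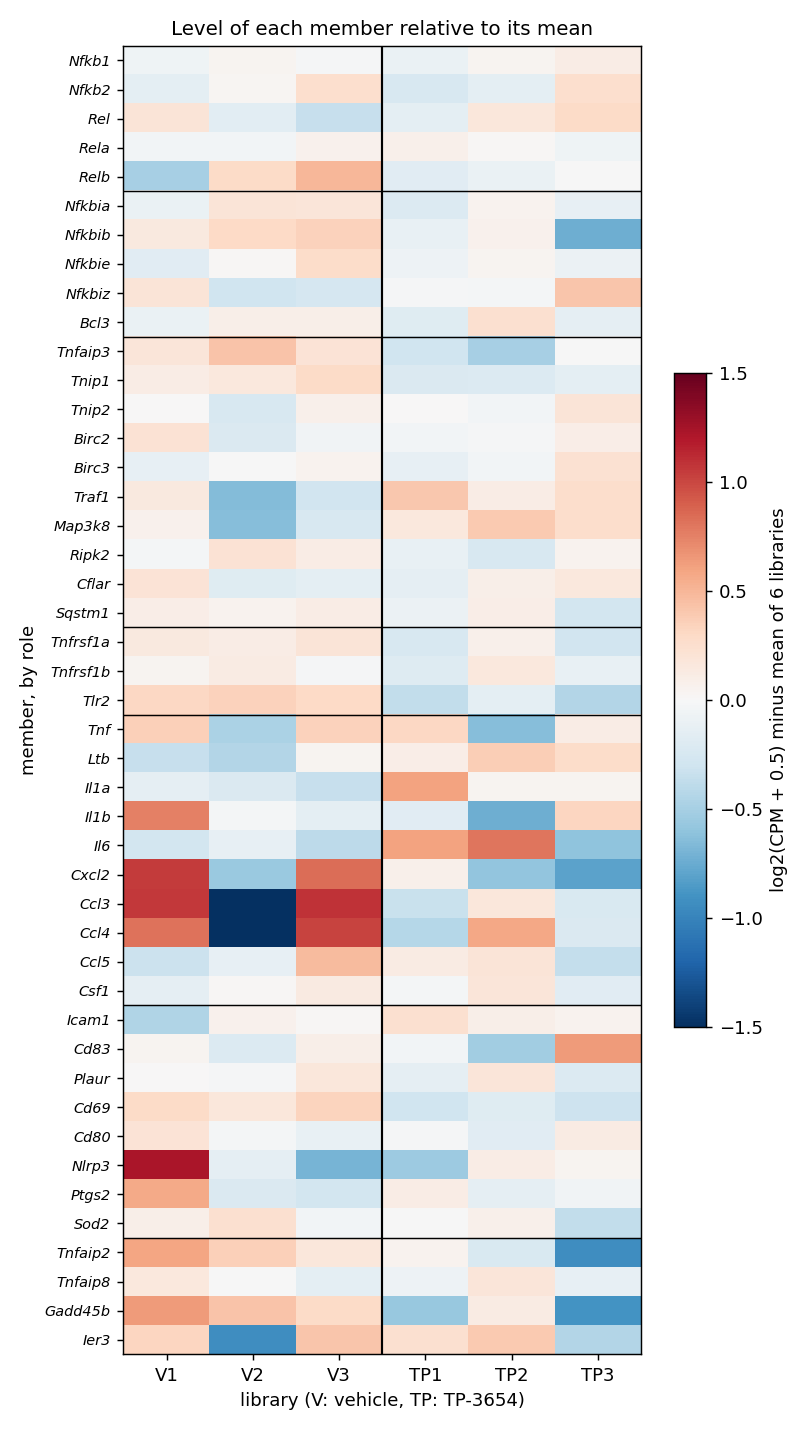
Level of all 45 members in each of the 6 libraries as log2(CPM + 0.5) minus the gene's mean over the libraries, grouped by role from the NF-kB subunits (top) to the stress or survival genes (bottom); colours end at 1.5 in either direction. The subunits are pale throughout, Tlr2 and Cd69 change colour at the line between the groups, and Ccl3 and Ccl4 are darkest in vehicle replicate 2.

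Expression per kilobase of exon spanned a wide range among the members, and the order given here depends on the joined length of each gene's annotated exons. In vehicle libraries Tnfrsf1a (60.7 ± 1.65 CPM per kb, SD, n = 3) was followed by Nfkbia (45.8 ± 5.08), Sqstm1 (42.7 ± 0.973) and Rela (40.9 ± 1.80), and these last 3 did not differ beyond their spread. Tnf stood at 2.62 ± 0.862 CPM per kb, and Il1a (0.0209), Cd80 (0.0687), Ptgs2 (0.146) and Cd83 (0.167 CPM per kb) were lowest.

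The kappa B stretches described above were found among genes that were lower and genes that were not. Of the 16 tested members with a stretch, 4 were lower (Tnfaip3, Tnip1, Tlr2, Tnfaip2) and 1 was higher (Ltb) at unadjusted p under 0.05, with a median log2 fold change of -0.13. Of the 16 tested members whose window held none, 3 were lower (Nfkbib, Tnfrsf1a, Gadd45b) and 0 were higher, with a median of -0.10. The difference between these sets was not tested. Nfkb2, which had the largest number of stretches over its RefSeq starts, had a log2 fold change of -0.08.

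A wider list of 75 further genes of TNF, interleukin 1, Toll-like receptor and NF-kB signalling, which share no gene with the 45 members, was compared in the same way. Of its 73 tested genes 10 were higher and 4 lower at unadjusted p under 0.05 (13.7% and 5.48%, against 10.2% and 6.84% of all genes), and none passed the FDR in edgeR. With DESeq2's size factors in edgeR the split was 10 higher and 7 lower. The median log2 fold change of the list was 0.05. DESeq2 called 4 of these genes higher and 2 lower, where it called 3.04% higher and 1.98% lower of all genes with an adjusted p. Groups did not overlap in 17 tested genes of the list in the higher direction (23.3%, against 14.3% of all genes). In the lower direction this held for 6 (8.22%, against 11.6%), and the contrast was not tested. Cd40 and Tnfsf13b were below the filter.

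Among the wider genes with the smallest p were a pair of CARD adaptors, a pair of receptors and a kinase adaptor. Card9, the myeloid adaptor of fungal receptors, was lower, with 101, 82.8 and 105 CPM in vehicle and 45.1, 52.5 and 70.2 CPM in TP-3654 libraries, a log2 fold change of -0.78 (SE 0.17) and an adjusted p of 0.0895 in edgeR. The groups did not overlap, and TP-3654 replicate 3 was the nearest to vehicle. Card10, another CARD scaffold gene, went from a mean of 0.481 to 1.26 CPM (adjusted p 0.179).

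The receptors and the kinase adaptor were higher. Il1r1, the signalling receptor of interleukin 1, had 45, 50.1 and 51.9 CPM in vehicle and 54.7, 102 and 101 CPM in TP-3654 libraries, a log2 fold change of 0.81 (SE 0.23) and an adjusted p of 0.159 in edgeR. TP-3654 replicate 1 was close to the vehicle libraries and the others far above. Tbkbp1, an adaptor of the kinase TBK1, went from a mean of 19.1 to 31.3 CPM (adjusted p 0.0936), and Tnfrsf13c, the BAFF receptor, from 3.59 to 6.49 CPM (adjusted p 0.136).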

How the data were processed

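LSK cells were sorted after magnetic depletion of lineage-positive cells, and libraries were made from poly(A) RNA with an NEBNext Ultra II kit, per the labels' protocols. The authors deposited whole-number counts of reads per Entrez gene, not normalized, with 1 column per library. They also deposited a table of their comparison. Per the file headers it holds a signal value per gene (a mean of normalized counts), a deposited log2 fold change with its standard error, a deposited score (the Wald statistic) and deposited p-values, raw and adjusted. The submitters' processing notes name mm10 and GRCm38 as builds and HISAT2 2.1.0, SAMtools 1.9.0 and DESeq2 as tools. Which read counter, annotation and strand setting were used is not given in the sources used here. The mean values of the authors' deposited table are not a weighted sum of the deposited counts (median error 4.99%). Its log2 fold changes differed from the fit to all 6 libraries by a median of 0.08, from the fit without TP-3654 replicate 3 by 0.04, and from fits without any other library by 0.10 to 0.12.

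Gene symbols, from the authors' deposited table or else from a RefSeq table of GRCm38.p6, matched 15839 of 15845 genes. The counts were tested with edgeR 4.0.16 in R 4.3.3 (TMM factors, filterByExpr, robust quasi-likelihood fit and F test, Benjamini-Hochberg adjustment, threshold 0.05), which kept 13149 genes and removed 2696. Each SE was derived as the size of the log2 fold change divided by the root of F. Alternatives were DESeq2 1.42.0, limma-voom (limma 3.58.1) with and without sample weights, other scalings and filters, no robust option, fits without each library, and a replicate block. On simulated counts for 13040 genes, this comparison recovered 63 of 100 genes changed 2-fold and 94 of 100 changed 4-fold, with 19 of 12840 unchanged genes called. The changed genes were drawn only from genes above a threshold of mean counts, and each gene was simulated independently. These rates therefore do not carry over to scarce members or to library differences shared by many genes. Shared sequence was measured as the share of a gene's transcript 31-mers found, on either strand, in transcripts of other genes of the GENCODE annotation of GRCm38. Genes that overlap the same locus count among these. The same annotation gave exon lengths, each the union of all annotated exons of a gene. Promoter windows came from RefSeq (GRCm38.p6).

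The members, the lists and the tests were chosen with earlier results of these data known. All 45 members are accounted for. Values in every library are printed for members with unadjusted p under 0.05 or groups that do not overlap and for the subunits, the IkB family and Tnf. Of the wider list the 6 genes with the smallest p were to be named, and 1 of them is not reported here. Ccl3, Ccl4, Cxcl2, Ier3, Nlrp3, Ptgs2, Il1b, Il6 and Il1a are shown in full because of their library patterns, chosen after their values were seen.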

Additional observations from a re-analysis of the deposited data

How the results depend on the processing

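The number of genes called over the whole table at an adjusted p under 0.05 was 0 in edgeR. It became 647 with DESeq2, 147 with limma-voom with sample weights, 5 with no low-count filter and 3 with the replicate block, and it ran from 0 to 31 when single libraries were left out (7, 18 and 31 for TP-3654 replicates 1, 2 and 3). No member was among them except the 5 that DESeq2 called. The 8 lower members at unadjusted p under 0.05 became 6 to 9 over all alternatives run, and 7 with the replicate block. Tlr2, Cd69, Tnip1, Gadd45b and Tnfaip3 stayed below 0.05 whichever library was left out (highest p 0.0447, for Tnfaip3), while the highest p was 0.0798 for Tnfaip2, 0.0980 for Nfkbib, 0.130 for Tnfrsf1a, 0.0761 for Ltb and 0.154 for Map3k8. The 2 higher members became 4 with sample weights, 1 with library totals only, 1 with the replicate block and 0 to 2 when single libraries were left out. Leaving out vehicle replicate 2 or TP-3654 replicate 2 gave 0, and leaving out vehicle replicate 3 or TP-3654 replicate 1 gave 1. The 4 lower genes of the wider list were 7 with DESeq2, 7 with RLE size factors and 2 to 8 when single libraries were left out (2 for vehicle replicate 1, 8 for TP-3654 replicate 2). Members whose groups did not overlap then numbered 2 to 8 in the higher direction (8 for vehicle replicate 1, 4 for TP-3654 replicate 3) and 8 to 13 in the lower direction (13 for TP-3654 replicate 2). Groups of fewer libraries separate more easily in any gene. The shares over all genes with a library left out are not given here, for non-overlap or for p. Nothing about the members is therefore read from these counts. The same holds for the genes that stayed below 0.05, since they were picked for a small p in the same libraries. The median log2 fold change of the components ran from -0.13 to -0.0035 (-0.0035 for vehicle replicate 3, -0.017 for TP-3654 replicate 1) and that of the response genes from -0.28 to -0.04.

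The direction of 23 tested members held under every alternative run, the 10 with unadjusted p under 0.05 among them, and 19 members turned in 45 of the 672 recomputed values. With groups that do not overlap, the direction of these 10 could hardly turn when a library was left out, so it adds no support. With sample weights the log2 fold changes that turned were -0.015 for Nfkb1, -0.030 for Birc3, 0.20 for Ccl3, 0.56 for Ccl4, 0.21 for Ccl5, 0.065 for Csf1, -0.45 for Cd83 and 0.011 for Tnfaip8. In limma-voom they were 0.075 for Ccl4, 0.0063 for Ccl5 and -0.13 for Cd83. With upper-quartile factors they were 0.0021 for Csf1 and 0.0018 for Tnfaip8, and with library totals only 0.0022 for Csf1. When single libraries were left out, the ranges that crossed 0 were -0.022 to 0.092 for Nfkb1, -0.26 to 0.029 for Nfkb2, -0.017 to 0.053 for Rela, -0.19 to 0.035 for Nfkbie, -0.19 to 0.039 for Bcl3, -0.0028 to 0.17 for Tnip2, -0.091 to 0.15 for Birc2, -0.069 to 0.13 for Birc3, -0.0055 to 0.21 for Cflar, -0.43 to 0.099 for Tnf, -0.96 to 0.010 for Ccl4, -0.23 to 0.27 for Ccl5, -0.12 to 0.060 for Csf1, -0.62 to 0.67 for Cd83, -0.998 to 0.40 for Nlrp3, -0.45 to 0.43 for Ptgs2, -0.11 to 0.069 for Tnfaip8 and -0.28 to 0.28 for Ier3. The cause was not tested. Same-numbered libraries of both groups did not deviate together (correlations -0.0117, -0.0150 and 0.0310), so the replicate numbers were not taken as pairs. Low counts limit Il1a, Cxcl2, Cd80, Cd83 and Ptgs2.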
